A study of Mus musculus with 6 samples.

Results

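The TCR alpha and delta locus of the mouse holds the gene segments from which the alpha and the delta chain of the T cell receptor (TCR) are assembled. Its members were chosen by name and annotation alone: rows of the deposited table with a T cell receptor biotype and a symbol that starts with Tra or Trd. There were 200 such rows among 54532, all on chromosome 14 between 52427928 and 54224206 (GRCm38). They comprised 128 variable (Trav), 60 joining (Traj) and 1 constant segment (Trac) of the alpha chain, and 6 Trdv, 2 Trdd, 2 Trdj and 1 constant segment (Trdc) of the delta chain. Of these, 30 were annotated as pseudogenes (20 Trav, 9 Traj and 1 Trdv), and 10 Trav segments carried a dual alpha and delta name.

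RNA came from bone marrow (BM) cells of C57BL/6 mice at day 100 after transplantation, in 3 libraries labelled Phf6 wild-type (WT 1 to WT 3) and 3 labelled Phf6 knockout (KO 1 to KO 3). By the study's methods, both groups received Lin- marrow of male donors that carried a retroviral JAK3 M511I with GFP, an activating Janus kinase mutation used to model T-cell acute lymphoblastic leukemia (T-ALL). The study's text names Phf6 fl/y donors for the wild-type and Vav1-Cre;Phf6 fl/y donors for the knockout cells it profiled, and Vav1-Cre, active across the blood lineages from the embryo on, removes exons 4 to 5 of Phf6. The labels repeat no Cre line and do not say that GFP+ cells were sorted, so cells of the irradiated recipients, males of 8 weeks, may be included. The genotype labels name Phf6, Phf7 and Phf8 in turn for replicates 1, 2 and 3 of each group, whereas the series design names Phf6. The RNA level of Phf6 itself overlapped between the groups, from 3.67 to 8.02 FPKM in WT and from 5.11 to 6.73 FPKM in KO, so the directions below rest on the labels. Values of the 3 libraries of a group are always given in the order of their replicate number.

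In developing T cells, RAG enzymes cut the locus and join 1 V to 1 J segment of the alpha chain, or V, D and J segments of the delta chain. The delta D, J and C segments lie between the Trav and Traj arrays, so that a V-to-J alpha joining deletes them from that chromosome. Alpha joining in the thymus tends to start at the Traj end far from Trac and to proceed toward Trac, and J segments can also be transcribed from promoters that lie within the array. RNA of a rearranged chain runs from V through J into C, and a fragment that crosses the V to J join does not match the genome in 1 piece.

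FPKM, the fragments on a gene scaled by its length in kilobases and by the library's size, was the deposited unit. Whole numbers of fragments (called reads) were recovered from it, and levels of classes are given as RPM, the reads per 1000000 of the library size the authors divided by. The libraries held 13015823 to 18235095 recovered reads, of which 748 to 5803 fell on the locus. WT 2 stood apart from the other 5 libraries: 17.1% of its reads lay in genes shorter than 1000 bases, compared with 3.11% to 5.01% elsewhere, and 6.74% in genes of at least 8000 bases, compared with 22.9% to 26.5%. Results that rest on WT 2 are therefore given with and without it.

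The locus as a whole gave 329, 343 and 374 RPM in WT 1 to WT 3, and 95.9, 47.5 and 51.1 RPM in KO 1 to KO 3. All 3 KO libraries lay below all 3 WT libraries, and the mean fell from 349 ± 23.2 to 64.9 ± 27.0 RPM (SD, n = 3 each), a 5.38-fold difference. In bulk RNA, fewer cells that carry a transcript and less RNA per cell cannot be told apart. At least 1 read was found for 162 of the 200 segments over the 6 libraries, and 38 segments had none.

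Trac, the constant region joined to every alpha chain (ENSMUSG00000076928, chromosome 14, 54220521 to 54224206, plus strand), carried most of that difference. Its level was 196, 292 and 226 FPKM in WT 1 to WT 3, and 41.8, 15.8 and 7.04 FPKM in KO 1 to KO 3. The groups did not overlap, and the lowest WT library was above the highest KO library. The mean of 238 ± 49.0 FPKM in WT was 11.0 times that of 21.5 ± 18.1 FPKM in KO (SD, n = 3 each). On the log2(FPKM + 1) scale the fold change was -3.72 ± 0.61 (SE, limma, adjusted p = 0.00596).

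Trdc (ENSMUSG00000104876, chromosome 14, 54142851 to 54148868, plus strand) is the delta constant region, and it did not follow Trac. It stood at 1.94, 14.8 and 2.80 FPKM in WT 1 to WT 3, and at 4.68, 3.42 and 7.09 FPKM in KO 1 to KO 3. The 3 KO libraries lay above WT 1 and WT 3 and below WT 2, so the groups overlapped, and the log2 fold change was 0.06 (limma, adjusted p = 0.956). Without WT 2 it was 0.81 ± 0.29 (SE, limma, adjusted p = 0.0579). With array weights, which gave WT 2 a weight of 0.0509, it was 0.86 (limma, adjusted p = 0.0197).

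Set against Trac within the same library, Trdc separated the groups. There were 0.0411, 0.210 and 0.0512 Trdc reads for each Trac read in WT 1 to WT 3, and 0.463, 0.897 and 4.16 in KO 1 to KO 3. Every KO library was above every WT library. In KO 3 the delta constant region had more reads than the alpha constant region (441 against 106), and in each of the other 5 libraries it had fewer. Reads are not scaled for length, and per length the pair stood level in KO 3, at 7.09 FPKM for Trdc and 7.04 FPKM for Trac. The first 90 bases of both transcripts, which the counts compare, were taken from the GENCODE M21 transcripts (GRCm38) and are shown so that the pair can be told apart:
Trac: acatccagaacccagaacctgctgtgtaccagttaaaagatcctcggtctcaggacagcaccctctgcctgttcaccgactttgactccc
Trdc: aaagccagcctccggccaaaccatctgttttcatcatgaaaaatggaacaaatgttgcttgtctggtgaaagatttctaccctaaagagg

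The reads on Trdc carry a limit of annotation. Gm43434, an antisense gene (chromosome 14, 54128298 to 54146287, minus strand), and Trdv5 on the minus strand overlap the Trdc interval. Gm43434 had 9, 14 and 20 reads in WT 1 to WT 3 and 40, 46 and 52 reads in KO 1 to KO 3, higher in every KO library. The strand setting of the counting is not given in the sources used here. Without it, reads of Trdc and of Gm43434 where they overlap cannot be told apart.

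**Figure D1:**
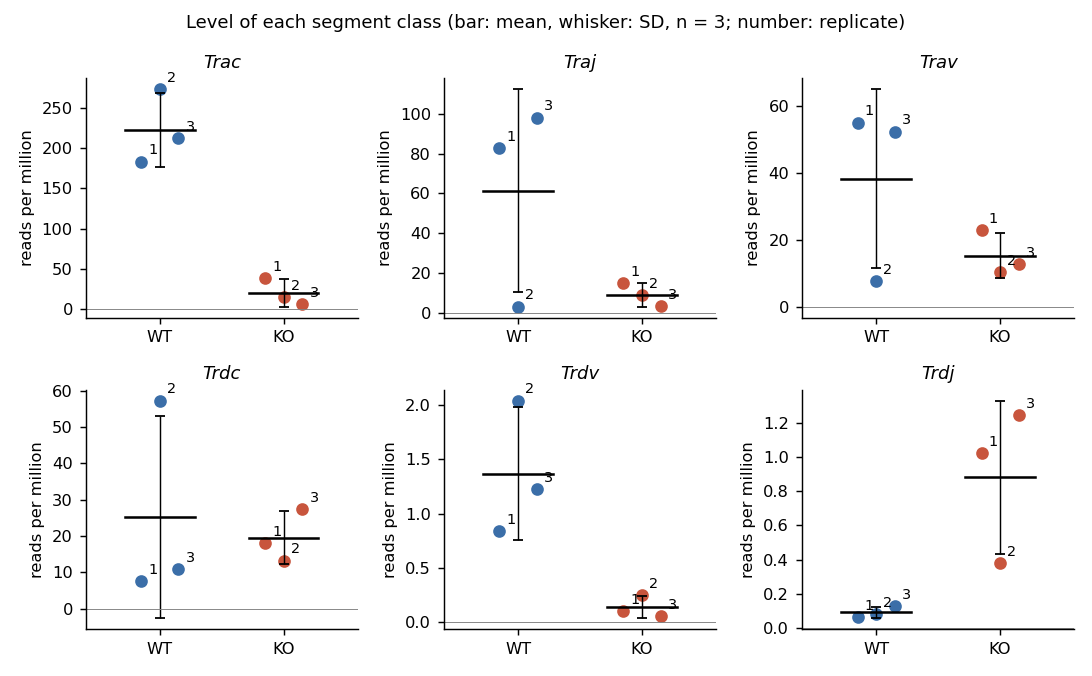
Level of 6 segment classes in RPM (y axis, a separate linear scale for each panel) in the WT and KO libraries; points are libraries with their replicate number, bars are means and whiskers SD (n = 3). Trac was lower and Trdj higher in every KO library than in every WT library, while WT 2 lay with the KO libraries for Traj and Trav and above all others for Trdc.

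As shares of the locus reads, the alpha and delta constant regions differed in opposite directions. Trac took 55.5%, 79.6% and 56.5% of the locus reads in WT 1 to WT 3, and 40.7%, 31.0% and 12.9% in KO 1 to KO 3, lower in every KO library. Trdc took 2.28%, 16.7% and 2.90% in WT 1 to WT 3, and 18.9%, 27.8% and 53.6% in KO 1 to KO 3, higher in every KO library. The exact 95% binomial intervals for Trdc were 15.6% to 17.9% in WT 2 and 17.1% to 20.8% in KO 1, so that these neighbours in the order overlapped in counting error. Summed as FPKM rather than reads, the Trdc share moved by 1.52 percentage points between group means, compared with 26.1 by reads. FPKM divides by length and so weights the short J segments more. In that unit neither the Trac share nor the Trdc share separated the groups. Trac held 195.6 of 1844.3 FPKM of the locus in WT 1 and 41.80 of 393.7 FPKM in KO 1. Trdc held 14.8 of 381 FPKM in WT 2 and 4.68 of 393.7 FPKM in KO 1.

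The variable and joining segments took part of the rest. Trav held 16.7%, 2.21% and 13.99% of locus reads in WT 1 to WT 3, and 23.8%, 21.7% and 24.9% in KO 1 to KO 3, again higher in every KO library. Traj held 25.2%, 0.869% and 26.2% in WT 1 to WT 3, and 15.4%, 18.2% and 6.08% in KO 1 to KO 3. For Traj the groups overlapped through WT 2 alone, since the 3 KO shares lay below those of WT 1 and WT 3.

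**Figure D2:**
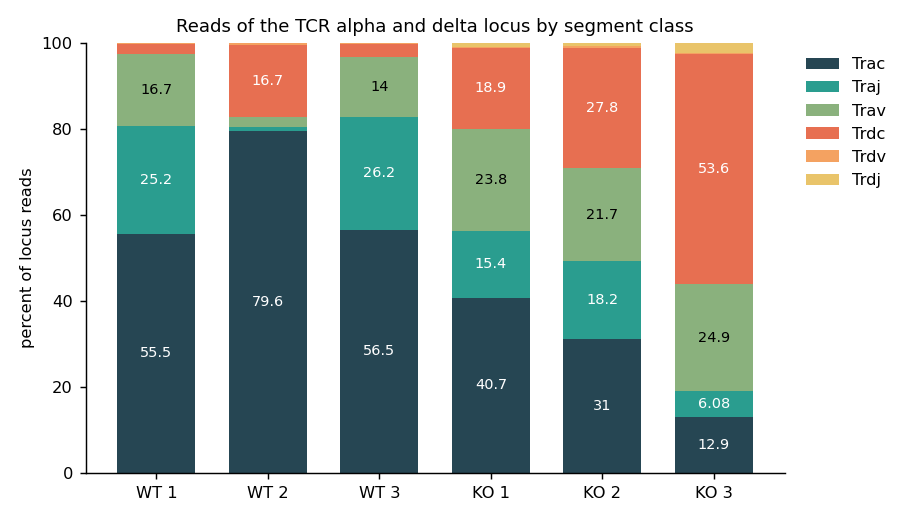
Percent of the locus reads (y axis, 0 to 100) in each segment class, stacked for the 6 libraries (x axis); printed values are percent, for slices above 4%. The Trac share was 55.5% to 79.6% in WT and 12.9% to 40.7% in KO, and the Trdc share 2.28% to 16.7% in WT and 18.9% to 53.6% in KO.

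The 2 delta joining segments were higher in KO, at low counts. Trdj2 (chromosome 14, 54136779 to 54136837) had 0, 1 and 2 reads in WT 1 to WT 3, and 17, 4 and 18 reads in KO 1 to KO 3. Trdj1 (chromosome 14, 54123138 to 54123188) had 1, 0 and 0 reads in the WT libraries and 2 reads in each KO library. In both segments every KO library was above every WT library. Neither had a read in every WT library, so both passed the filter on low values only with KO libraries, where they are high. The log2 fold change was 2.60 ± 0.65 for Trdj2 (SE, limma, adjusted p = 0.0276) and 1.35 ± 0.35 for Trdj1 (SE, limma, adjusted p = 0.0328), where 13.1% of all genes tested were called higher. Without the filter on low values both calls were lost (limma, adjusted p = 0.0582 for Trdj2 and 0.0810 for Trdj1).

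Relative to the delta constant region, the joining segments also stood higher in KO. There were 0.00862, 0.00148 and 0.0119 Trdj reads for each Trdc read in WT 1 to WT 3, against 0.0564, 0.0288 and 0.0454 in KO 1 to KO 3. The call for Trdj1 rests on 6 reads against 1, and it was lost when any of WT 3, KO 1, KO 2 or KO 3 was left out (limma, adjusted p from 0.0899 to 0.108). The call for Trdj2 was lost without WT 1, KO 1 or KO 3 (limma, adjusted p from 0.0734 to 0.107). A J segment is recognised by the codons for phenylalanine, glycine, any residue and glycine. The pattern TTNGGNNNNGGN, which covers these codons, is set in capitals where it was found on the sense strand. It also admits leucine codons in the first place, and the reading frame was not checked, so a match need not be those codons:
Trdj1: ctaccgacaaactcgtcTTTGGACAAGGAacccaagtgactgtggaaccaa
Trdj2: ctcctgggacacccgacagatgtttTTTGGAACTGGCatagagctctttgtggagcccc

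Delta variable segments went the other way at still lower counts. The 6 Trdv segments together had 13, 24 and 19 reads in WT 1 to WT 3, and 2, 4 and 1 in KO 1 to KO 3, with no overlap. Trdv2-2 had 6, 12 and 3 reads in the WT libraries and none in KO, and Trdv1 had 4, 0 and 9 reads in WT and none in KO. Trdv5, which lies beyond Trdc in inverse orientation, held all 7 Trdv reads of the KO libraries, and 3, 11 and 5 reads in WT 1 to WT 3. Trdv2-1 had 1 read and Trdv4 had 2 reads, all in WT, and the pseudogene Trdv3 had none. None of the 6 passed the filter on low values, so no test was made.

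Counting the 10 dual Trav segments with the delta side reduced that contrast. The log2 ratio of the mean Trdv level, KO over WT, was -0.98 with them and -3.28 without. Dual segments held 10%, 10.1% and 8.37% of Trav reads in WT 1 to WT 3, and 10.8%, 22.8% and 17.6% in KO 1 to KO 3, higher in every KO library but by little in KO 1. The dual segment with the most reads in a KO library was Trav15-1-dv6-1, with 9, 0 and 9 reads in WT 1 to WT 3 and 17, 11 and 16 in KO 1 to KO 3 (limma, adjusted p = 0.190). The D segments Trdd1 and Trdd2, of 11 and 16 bases, had no read in any library, which at a floor of 3 reads allows up to 0.0517% to 0.401% of the locus reads. A lower level was not detectable at this depth. That limit holds only for fragments that can be placed on segments so short. Fragments that cross a join could go uncounted at any depth, so the level of D segments in joined RNA is not bounded by it.

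Joining segments of the alpha chain made up the most numerous set of tested members. The 60 Traj segments together had 1279, 35 and 1521 reads in WT 1 to WT 3, and 276, 136 and 50 in KO 1 to KO 3. WT 1 and WT 3 were above every KO library, and WT 2 was below all of them. The level was 61.3 ± 51.1 RPM in WT and 8.85 ± 5.86 RPM in KO (SD, n = 3 each), with groups that overlap.

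WT 2 showed how far the alpha J and C segments can part. With 3205 Trac reads it had 0.0109 Traj reads for each Trac read, compared with 0.453 and 0.464 in WT 1 and WT 3 and 0.379, 0.586 and 0.472 in KO 1 to KO 3. In the other 5 libraries the ratio thus lay between 0.379 and 0.586 under both labels, while the Trac level differed 11.0-fold between group means. The part of WT 2's different spread of reads over long and short genes in this ratio was not tested.

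Along the array, Traj reads rose toward Trac in 5 of 6 libraries. From the 15 segments farthest from Trac (Traj61 to Traj47) to the 15 nearest (Traj16 to Traj1), WT 1 had 21, 107, 435 and 716 reads in the 4 parts, and WT 3 had 24, 129, 461 and 907. KO 1 had 1, 16, 101 and 158, KO 2 had 2, 16, 42 and 76, and KO 3 had 1, 8, 15 and 26. WT 2, with 4, 1, 16 and 14 reads, did not rise in the part nearest Trac. The share of Traj reads in the part nearest Trac was 56.0%, 40.0% and 59.6% in WT 1 to WT 3 and 57.2%, 55.9% and 52.0% in KO 1 to KO 3, and the groups overlapped.

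The same order held segment by segment. Spearman's rho between reads and distance from Trac over the 60 segments was -0.95, -0.13 and -0.97 in WT 1 to WT 3, and -0.90, -0.78 and -0.50 in KO 1 to KO 3. These are descriptions over segments of 1 library that share its depth and differ in length, from 29 to 72 bases. The profile of reads over the 60 segments correlated with r = 0.94 between WT 1 and WT 3, with r = 0.83 between WT 1 and KO 1 and with r = 0.84 between WT 3 and KO 1. Correlations with WT 2, which had 35 Traj reads, were lower, from -0.03 with KO 3 to 0.38 with KO 1, at 0.14 with WT 1 and 0.17 with WT 3. Those of KO 3, which had 50 Traj reads, with the other 4 libraries lay between 0.37 and 0.55.

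**Figure D3:**
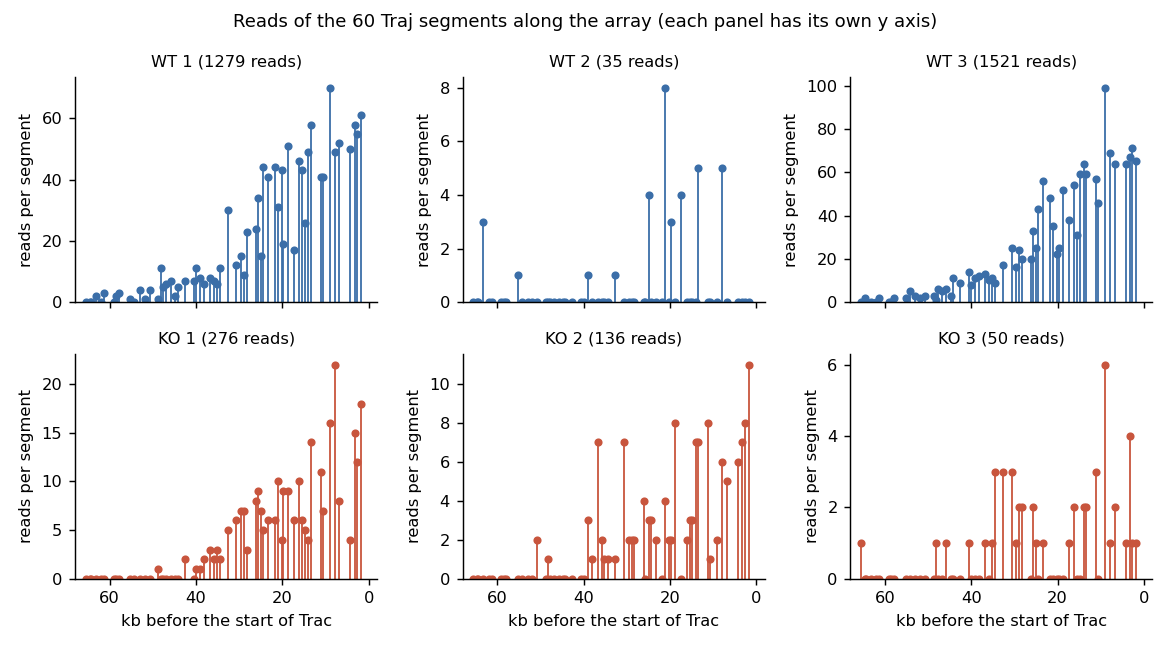
Reads of each of the 60 Traj segments (points, y axis in reads, a separate scale for each library) against the distance before the start of Trac in kb (x axis, Trac to the right). Reads rose toward Trac in WT 1, WT 3, KO 1 to KO 3, and WT 2 held 35 reads in 10 segments.

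The Traj segments that led in a library lay in the 2 parts of the array nearer Trac. Traj7, 9.05 kb before Trac, led in WT 1 with 70, in WT 3 with 99 and in KO 3 with 6 reads, and had 0 reads in WT 2, 16 in KO 1 and 2 in KO 2. Traj6 led in KO 1 with 22 reads, against 49, 5 and 69 in WT 1 to WT 3. Traj1, a pseudogene of 29 bases, led in KO 2 with 11 reads, and had 61, 0 and 65 reads in WT 1 to WT 3, 18 in KO 1 and 1 in KO 3. Traj20 led in WT 2 with 8 reads, where it made up 22.9% of the Traj reads, and had 31 and 35 reads in WT 1 and WT 3 and 10, 4 and 0 in KO 1 to KO 3.

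Traj reads were spread over many segments. Whether these reads came from joined J segments or from other RNA of the array was not tested, so the values below do not measure J use. The effective number of Traj segments, the inverse of the sum of squared shares, was 31.0, 7.34 and 30.4 in WT 1 to WT 3, and 26.6, 23.8 and 19.2 in KO 1 to KO 3. It tends to be lower with fewer reads and was not adjusted for depth. The leading segment held 5.47% to 22.9% of Traj reads in WT and 7.97% to 12.0% in KO, and the groups overlapped in both measures. J segments annotated as pseudogenes took 12.0%, 0% and 10.6% of Traj reads in WT 1 to WT 3, and 12.0%, 11.8% and 4.0% in KO 1 to KO 3.

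The pattern described for the delta segments, here called the motif, was found on the sense strand in 46 of the 60 Traj segments (76.7%). On the other strand it was found in none. The reading frame was not checked, so these are matches to the pattern and not counts of segments with the J codons. It was found in 0.363% of 827 windows of 61 bases, the median Traj length, cut from the V and C transcripts of the locus. The mean number of reads in segments with and without it was 21.1 and 22.1 in WT 1, 0.587 and 0.571 in WT 2, and 26.04 and 23.1 in WT 3. In KO 1 to KO 3 it was 4.43 and 5.14, 2.26 and 2.29, and 0.913 and 0.571. Segments with the motif were thus higher in 3 libraries and lower in 3. The leading segments are shown with the match to the pattern, in whichever frame, in capitals, and Traj20 and Traj1, both without it, beside them:
Traj20: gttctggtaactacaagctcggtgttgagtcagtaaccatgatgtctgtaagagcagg
Traj11: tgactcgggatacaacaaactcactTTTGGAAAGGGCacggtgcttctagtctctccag
Traj7: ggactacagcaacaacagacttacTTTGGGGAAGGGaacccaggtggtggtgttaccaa
Traj6: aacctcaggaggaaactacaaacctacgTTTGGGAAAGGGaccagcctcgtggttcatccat
Traj2: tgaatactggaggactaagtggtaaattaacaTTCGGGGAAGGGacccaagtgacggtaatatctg
Traj1: gtgtgcagatagctgctccatctttcctg

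Variable segments give the alpha chain the part that, with J, meets the antigen. The 128 Trav segments together had 850, 89 and 812 reads in WT 1 to WT 3, and 425, 162 and 205 in KO 1 to KO 3. Here too WT 1 and WT 3 were above every KO library and WT 2 below. At least 1 read was found for 80, 21 and 76 Trav segments in WT 1 to WT 3, and for 54, 38 and 40 in KO 1 to KO 3.

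Fewer segments carried the Trav reads in KO than in WT 1 and WT 3, which also had more Trav reads. With fewer reads, fewer segments are found and the effective number tends to be lower, and neither was adjusted for depth. The effective number of Trav segments was 42.3, 13.7 and 47.4 in WT 1 to WT 3, and 14.5, 21.3 and 14.96 in KO 1 to KO 3. WT 2, with 89 Trav reads, lay below the KO libraries, so the groups overlapped. Summed by subgroup, the difference in effective number between group means was -2.65, compared with -17.6 by segment.

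The leading Trav segment differed between libraries. Trav16n led in WT 1 with 54 and in WT 3 with 37 reads, and had 0 reads in WT 2 and 4, 1 and 3 reads in KO 1 to KO 3. Trav13-1 led in KO 1 with 83 reads, 19.5% of the Trav reads there, and in WT 2 with 13 reads, and had 28 and 19 reads in WT 1 and WT 3 and 3 and 4 in KO 2 and KO 3. Trav12-1 led in KO 2 with 16 reads, against 15, 0 and 15 in WT 1 to WT 3, 13 in KO 1 and 2 in KO 3.

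Trav14-1 was among the 2 leading segments of all 3 KO libraries. It had 46, 14 and 29 reads in KO 1 to KO 3 and 23, 7 and 25 in WT 1 to WT 3, and in KO 3 it was tied with Trav13n-4 at 29 reads. As a level, its log2 fold change was 0.37 (limma, adjusted p = 0.570). The profile of reads over the 128 segments correlated with r = 0.80 between WT 1 and WT 3, with r = 0.49 and 0.40 between WT 2 and these, with r from 0.47 to 0.61 between KO libraries and with r from 0.19 to 0.61 between WT and KO libraries, as a description over segments.

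The Trav segments come in near-identical copies from duplications of the array, which limits how well reads can be placed. Of the 128, 39 had no window of 75 bases that was free of an exact copy in another segment, and these held 161 of 2543 Trav reads (6.33%), with no read at all in 21. How the authors' counting treated reads that match several places is not given in the sources used here. The last 120 bases of the copies of Trav14 and Trav13 are shown because both subgroups led in KO libraries. Capitals mark bases that differ from the first sequence of each subgroup, 5 in Trav14-2, 3 in Trav14n-1 and 7 in Trav13n-1:
Trav14-1: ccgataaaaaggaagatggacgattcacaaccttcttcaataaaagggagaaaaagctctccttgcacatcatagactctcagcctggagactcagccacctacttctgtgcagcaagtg
Trav14-2: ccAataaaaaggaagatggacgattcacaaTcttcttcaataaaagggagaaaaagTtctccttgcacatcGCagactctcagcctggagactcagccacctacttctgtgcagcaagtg
Trav14n-1: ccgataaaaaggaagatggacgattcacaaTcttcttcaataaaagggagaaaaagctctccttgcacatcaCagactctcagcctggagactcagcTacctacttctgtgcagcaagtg
Trav13-1: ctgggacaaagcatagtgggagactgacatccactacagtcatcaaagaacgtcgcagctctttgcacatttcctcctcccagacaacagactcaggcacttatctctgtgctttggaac
Trav13n-1: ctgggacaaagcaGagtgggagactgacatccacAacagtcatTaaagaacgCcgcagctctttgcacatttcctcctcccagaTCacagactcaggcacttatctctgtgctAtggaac

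By position, the Trav array was divided into 3 parts, of which the one nearest Trac (42 segments from Trav7-4 to Trav23) held most reads in each library. Its share was 56.0%, 65.2% and 56.2% in WT 1 to WT 3, and 83.1%, 73.5% and 53.2% in KO 1 to KO 3, and the groups overlapped through KO 3. The farthest part held 15.3%, 2.25% and 20.0% in the WT libraries and 4.47%, 11.1% and 13.7% in the KO libraries. At least 50% of the windows were unique in 37 of the 42 segments of the nearest part, and in 14 and 16 of the 43 segments of each other part.

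Within the array, a pair of runs was picked out after their values were seen, and neither was tested. The 26 segments from Trav10 to Trav16 held 42.7%, 42.7% and 41.6% of Trav reads in WT 1 to WT 3, and 75.3%, 71.0% and 48.3% in KO 1 to KO 3, higher in every KO library. The 7 segments from Trav17 to Trav23, at the end of the Trav array nearest Trac, had 28, 3 and 37 reads in the WT libraries and none in any KO library. At a floor of 3 reads, a count of 0 in the KO libraries allows 0.161 to 0.191 RPM.

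**Figure D4:**
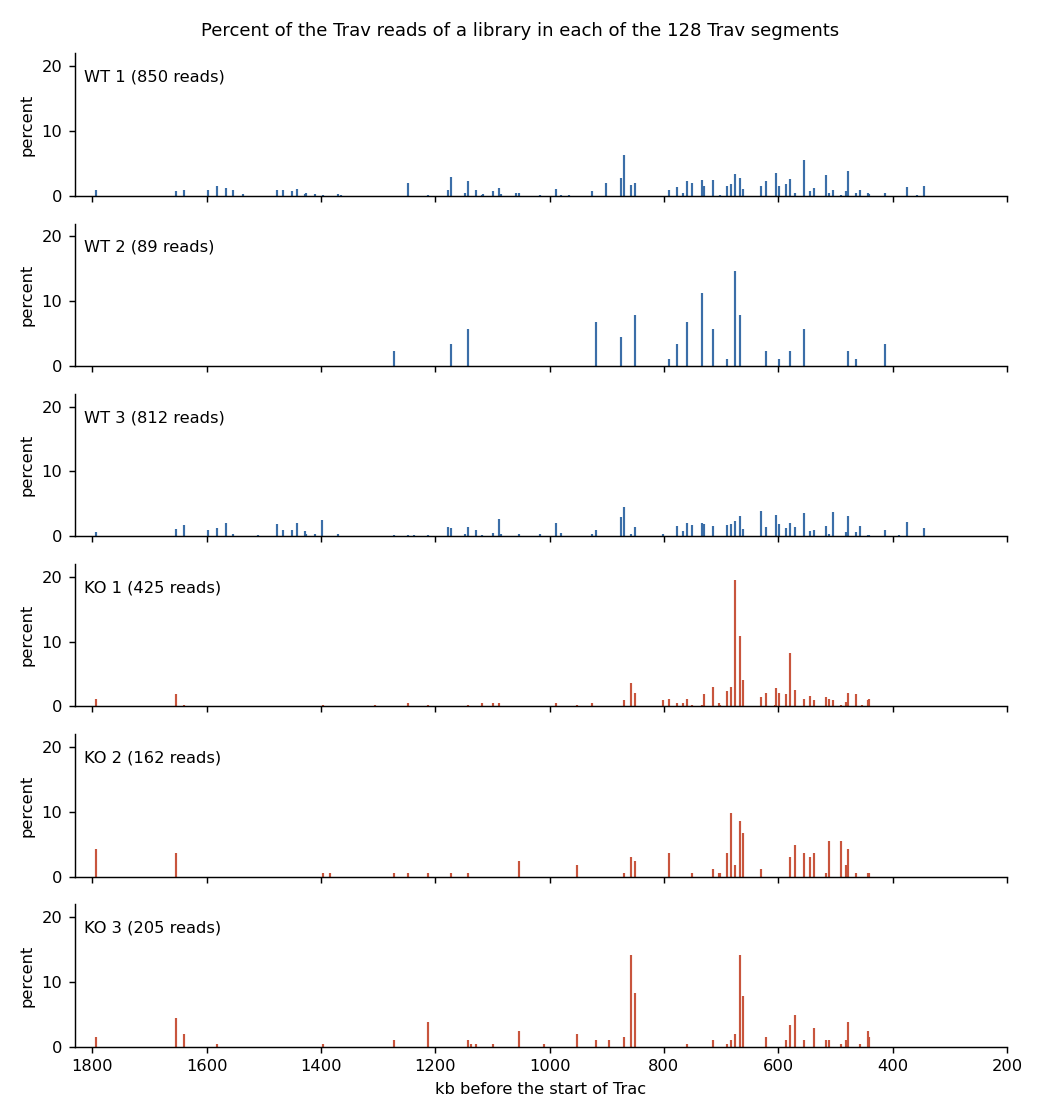
Percent of a library's Trav reads (y axis, the same 0 to 22 scale in each row) in each of the 128 Trav segments, placed by the distance before the start of Trac in kb (x axis, Trac to the right), with 1 row per library. In KO 1 Trav13-1 reached 19.5%, in KO 3 Trav14-1 and Trav13n-4 reached 14.1%, and no segment of WT 1 or WT 3 exceeded 6.35%.

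Segment by segment, 65 of the 200 passed the filter of at least 1 FPKM in at least 3 of 6 libraries: 40 Traj, 21 Trav, both Trdj, Trac and Trdc. On a Traj segment of median length 1 read was worth 0.880 to 1.39 FPKM, so that the filter let J segments through on few reads, and 31 of the 40 had under 10 reads in every KO library. Of the 65, 2 were higher in KO (Trdj1 and Trdj2) and 3 lower (Trac, Trav9-1 and Trav7-4) by limma at an adjusted p under 0.05. Among all 13393 genes tested, 13.1% were higher and 13.3% lower. At an unadjusted p under 0.05 (limma) there were 2 higher and 7 lower segments. The shares of all genes at that unadjusted threshold were not counted. They are at least the 13.1% and 13.3% above, since the adjustment does not lower a p-value. Counts over the 65 are descriptions, since a segment that is high in 1 group can pass the filter through it. In 3 Trav segments no library outside WT reached 1 FPKM. Trdj1 and Trdj2 lacked a read in at least 1 WT library and passed only with KO libraries.

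Trav9-1 (chromosome 14, 53488045 to 53488567) had 20, 10 and 16 reads in WT 1 to WT 3, and 1, 0 and 0 in KO 1 to KO 3. Every KO library was below every WT library, and the log2 fold change was -1.80 ± 0.19 (SE, limma, adjusted p = 0.00137). It passed the filter through the WT libraries alone and so could come out only lower. Without the filter its adjusted p was 0.00815 (limma). Trav7-4 (chromosome 14, 53461099 to 53461738) had 19, 6 and 16 reads in the WT libraries and 5, 0 and 1 in the KO libraries, without overlap. Its log2 fold change was -1.28 ± 0.29 (SE, limma, adjusted p = 0.0204), and 39.8% of its windows were free of a copy elsewhere. It too passed through the WT libraries alone. That call was lost without the filter (limma, adjusted p = 0.0543), without WT 1, WT 3, KO 2 or KO 3 (limma, adjusted p from 0.0572 to 0.0884) and on the TPM scale (limma, adjusted p = 0.120).

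Scaling moved all genes together: the median log2 fold change of the 13393 genes was 0.09, and 0.86 after rescaling to TPM. Against that shift Trac stayed lower, at -2.95 on the TPM scale (limma, adjusted p = 0.0225), and Trdj2 higher, at 4.001 (limma, adjusted p = 0.0211).

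The number of lower segments turned on WT 2. Without it, 49 of the 65 were lower and 2 higher by limma, against 25.3% lower and 26.8% higher among all genes. With array weights 52 were lower and 4 higher, against 30.4% and 32.8% of all genes. All 40 tested Traj segments had a negative fold change with all 6 libraries, and in all 40 WT 1 and WT 3 exceeded every KO library, while 32 of them had no read in WT 2. The median log2 fold change over the 65 was -1.19 with all libraries and -2.31 without WT 2, and over all genes it was 0.09 and 0.04.

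Traj7 shows the effect for 1 segment. It had 76.9, 0 and 108 FPKM in WT 1 to WT 3, and 14.6, 2.15 and 6.32 FPKM in KO 1 to KO 3. Its log2 fold change was -1.52 ± 1.80 (SE, limma, adjusted p = 0.583) and -3.70 without WT 2 (limma, adjusted p = 0.00508). Groups that do not overlap were found in 9 of the 65 segments, 3 with KO higher and 6 with KO lower, compared with 26.2% and 22.9% of all genes.

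**Figure D5:**
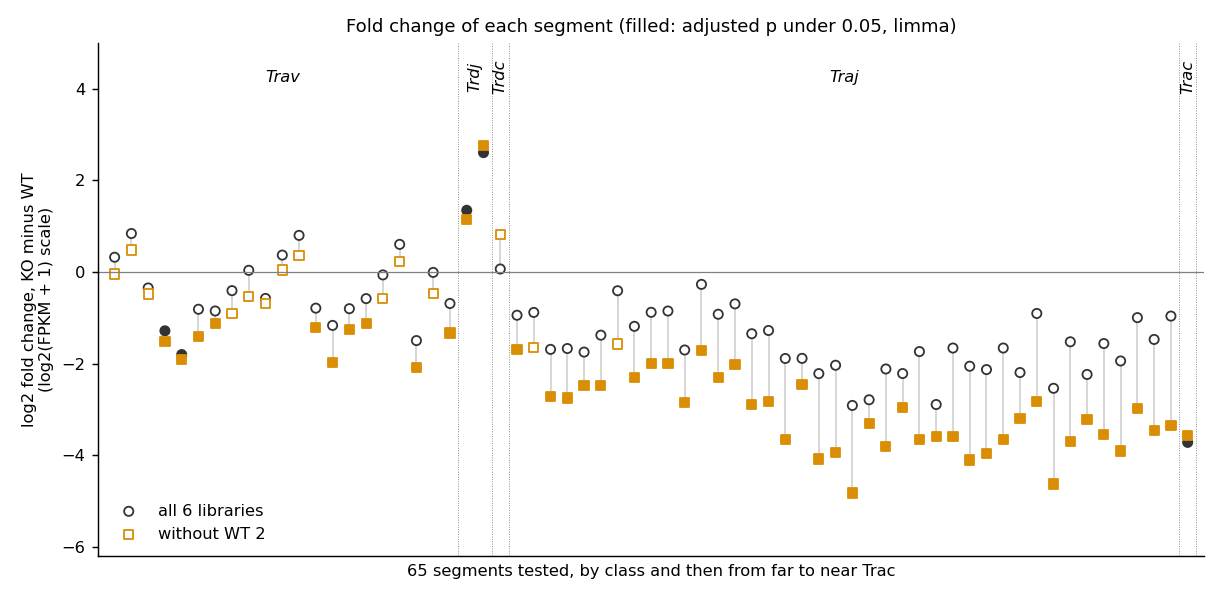
Log2 fold change, KO minus WT, on the log2(FPKM + 1) scale (y axis) of the 65 tested segments (x axis, by class and then toward Trac), with all 6 libraries (circles) and without WT 2 (squares); filled symbols had an adjusted p under 0.05 by limma. With all libraries 5 symbols are filled, and without WT 2 51 are filled, 49 of them below 0.

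Genes that assemble the receptor were read from lists drawn up from general knowledge. Of 11 genes of recombination and repair, 6 were higher and none lower (limma), where 13.1% of all genes were higher and 13.3% lower, with a summed level of 54.2 to 110.1 FPKM in WT and 792 to 915 FPKM in KO. The 6 were Rag1, Rag2, Dntt, Xrcc6, Lig4 and Hmgb1. Rag1, which encodes the cutting enzyme, had 0.0686, 1.71 and 0 FPKM in WT 1 to WT 3, and 392, 457 and 338 FPKM in KO 1 to KO 3, without overlap. Dntt, which adds bases at the joins, had 0.731, 26.6 and 0.121 FPKM in the WT libraries and 86.7, 85.0 and 100.8 FPKM in the KO libraries, again without overlap. Its call (limma, adjusted p = 0.0284) held under 10 of 17 alternative settings of the fit, and that of Hmgb1 under 14 of 17. Calls of Rag1, Rag2, Xrcc6 and Lig4 held under all settings that could fit them.

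The partners of the alpha chain did not move with Trac as a group. Of 7 receptor partners tested, Ptcra, the surrogate alpha chain of the pre-T receptor, was higher, Trbc1 was lower and 5 did not pass (limma). Both shares were near those of all genes, 13.1% higher and 13.3% lower. Cd3e had 42.7, 22.6 and 60.03 FPKM in WT 1 to WT 3, and 56.8, 44.5 and 53.7 FPKM in KO 1 to KO 3, with groups that overlap. Ptcra had no read in any WT library and 161, 167 and 137 FPKM in KO 1 to KO 3. Trbc1 had 179, 869 and 254 FPKM in the WT libraries and 0.430, 0 and 1.91 FPKM in the KO libraries, whereas its near-identical copy Trbc2 had 311, 937 and 366 FPKM in WT and 782, 651 and 464 FPKM in KO.

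Summed, the beta constant segments therefore overlapped where Trac did not. Trbc1 and Trbc2 together gave 349, 1299 and 443 RPM in WT 1 to WT 3, and 542, 451 and 322 RPM in KO 1 to KO 3. The 10 rows of the gamma locus named Tcrg gave 100, 173 and 191 RPM in WT and 629, 692 and 1144 RPM in KO, higher in every KO library. Differences between the loci were not tested.

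Of 12 factors known to act at the Tcra enhancer and promoters, 4 were higher, Myb and Bcl11b among them, and none lower (limma), beside 13.1% higher and 13.3% lower among all genes. Of 13 neighbouring genes, 11 were tested, and only Sall2 was higher and none lower, a share near that 13.1%. Dad1, which lies just beyond Trac, had 18.7, 60.5 and 17.7 FPKM in the WT libraries and 12.6, 12.2 and 10.8 FPKM in the KO libraries, without overlap, and did not pass (limma, adjusted p = 0.142). Abhd4, beyond Dad1, had 2.51, 2.91 and 1.75 FPKM in WT and 1.62, 1.22 and 1.23 FPKM in KO (limma, adjusted p = 0.151).

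Marker genes of other cells moved with the labels too, and WT 2 held the most of 4 of the 5 kinds. All 8 neutrophil genes and 4 of 5 tested monocyte and macrophage genes were lower in KO (limma), with summed levels of 6494 to 90790 FPKM and 589 to 4987 FPKM in WT, and 91.5 to 274 FPKM and 11.1 to 27.3 FPKM in KO. Among all genes 13.3% were lower and 13.1% higher. Of 9 tested NK cell genes 8 were lower and 1 (Gzma) higher, and the summed level, 346 to 601 FPKM in WT and 575 to 626 FPKM in KO, overlapped. Gzma alone had 12.9, 50.8 and 27.9 FPKM in WT 1 to WT 3, and 587, 566 and 615 FPKM in KO 1 to KO 3. It thus made up most of the KO sum, and the overlap does not describe the 8 lower genes. None of 3 tested B cell and 5 tested erythroid genes passed. The B cell sum was 11.3, 985 and 17.2 FPKM in WT 1 to WT 3 and 0.906 to 1.11 FPKM in KO. The erythroid sum was 126, 61816 and 497 FPKM in WT 1 to WT 3 and 112, 58.4 and 9.71 FPKM in KO 1 to KO 3. Every KO library lay below every WT library, though the nearest pair, WT 1 and KO 1, lay close at 126 and 112 FPKM. No listed gene of these 5 cell types had a count of 0 in every KO library.

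T cell markers did not fall together with Trac. Of 9 T cell genes only Cd5 passed, lower in KO (limma), a share near the 13.3% of all genes. That call held under 12 of 17 alternative settings of the fit. The summed level was 876, 2009 and 956 FPKM in WT 1 to WT 3, and 1148, 1083 and 1063 FPKM in KO 1 to KO 3, with groups that overlap. The sum joins members that went opposite ways. Cd5, Cd2 and Thy1 were lower in every KO library than in every WT library, and Lck and Lat were higher. Cd3d, Cd3e, Cd3g and Cd247 overlapped. Among all genes 22.9% were lower and 26.2% higher without overlap. Of 8 genes of double positive thymocytes 6 were higher and none passed as lower, where 13.1% of all genes were higher. Cd8b1, on that list, went the other way but did not pass (limma, adjusted p = 0.0512). It had 276, 788 and 293 FPKM in WT and 141, 130 and 114 FPKM in KO, without overlap. Of 4 tested genes of gamma delta T cells 2 (Sox13 and Tcrg-C2) were higher and none lower, beside the same 13.1%. The double positive list shares members with the lists above, among them Rag1, Rag2, Dntt and Ptcra. The part of the mix of cells in the levels of the locus was not tested.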

How the data were processed

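Total RNA was extracted with Trizol, libraries were made with a NEBNext Ultra kit and paired-end reads were sequenced on a NovaSeq. The submitters' processing notes name HISAT2 2.0.5, featureCounts 1.5.0-p3 and GRCm38/mm10. The strand setting, the annotation release and the treatment of reads with several matches are not given in the sources used here. The authors deposited FPKM per gene with the gene's length and coordinates. Coordinates of all 200 segments equalled those of GENCODE M21, from which sequences were read.

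FPKM times length was a whole multiple of 1 step for 100% of values in each library (within 0.001 of a step), which gave reads per segment. The recovered total was 13015823 to 18235095 reads per library, and RPM used the size the authors divided by, 0.645 to 1.21 times that total. Shares have exact 95% binomial intervals, and a count of 0 is read against a floor of 3 reads. Both cover counting error only, since PCR copies are not independent molecules.

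The 3 KO libraries were compared with the 3 WT libraries by limma 3.58.1 (lmFit, eBayes with trend, two-sided) in R 4.3.3 on log2(FPKM + 1), which understates changes of low genes. The 13393 genes with at least 1 FPKM in at least 3 of 6 libraries were fitted, with Benjamini-Hochberg adjustment over all of them and a threshold of 0.05. The study's methods name a count model; the deposited unit led to limma instead. The fit was tested on simulated data. Sums, shares, evenness and position were given as values without a test, because 3 against 3 libraries cannot go below p = 0.1 in an exact permutation test. Nothing in the labels says that replicates are separate animals, so p-values measure the spread between these samples, which may be technical.

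The Trav array was divided into 3 and the Traj array into 4 parts by segment order. A window of 75 bases was unique when no other segment of the locus held it on the GENCODE transcripts. Segments named were Trac, Trdc, all Trdv, Trdd and Trdj, the 2 leading Trav and Traj of each library and up to 5 called segments in each direction. From the lists of assembly genes (recombination and repair, receptor partners, Tcra factors, neighbours), the members with the 2 smallest p-values and Rag1, Dntt, Ptcra, Cd3e, Trbc1, Trbc2, Dad1 and Abhd4 could be named. Other segments or genes named, such as Traj11 and Tcrg-C2, were chosen after their values were seen. A gene that this rule would name is not reported here. The members and lists, those of 8 cell types included, were chosen with earlier results of these data known. Alternatives were other pseudocounts (0.1 and 0.5), filters, scalings, voom on recovered reads, array weights, a replicate block, other units and denominators, and leaving out each library. The other software was SciPy 1.17.1 and pandas 2.3.3 with NumPy 2.4.6 in Python 3.11.15, and Matplotlib 3.10.9 for the plots.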

Additional observations from a re-analysis of the deposited data

How the results depend on the processing

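Trac was lower in KO with an adjusted p under 0.05 by limma under all 17 alternatives (0.000307 to 0.0335), and so was Trav9-1 under the 16 that could fit it. The count of segments higher in KO, 2 with all libraries, was 0 with a pseudocount of 0.1, without the filter and with voom on recovered reads, 1 at a mean of at least 5 FPKM and 4 with array weights. The count of lower segments, 3, was 6 without the filter, 1 at a mean of at least 5 FPKM, 5 after quantile normalization and 52 with array weights. Leaving out 1 library gave 0 to 2 higher and 2 to 49 lower segments, the 49 without WT 2. Other values moved by more than 1 SD between replicates, and the cause was not tested. The log2 ratio of mean Trdc, -0.37, was 0.93 on the TPM scale and 1.09 without WT 2, and ranged from -0.80 to 1.09 when 1 library was left out. That of Trdv, -3.28, was -2.38 on the TPM scale and -0.98 with the dual segments added. The difference in Trdc share was 1.52 percentage points by FPKM. The difference in Traj share, -4.18 percentage points, was -15.8 of V and J reads alone, and that in effective Trav number was -2.65 by subgroup. Of the other headline comparisons and alternatives, 190 values stayed within the spread between replicates or within 1.5 times the count. That rule allows a change of sign where the main value is small against the spread. The difference in effective Traj number, 0.29, ranged from -7.49 to 4.35 when 1 library was left out. That in mean Traj position, -1.20 kb, ranged from -2.57 to 0.85 kb.

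With the replicate number as a block, 1 segment was higher (Trdj2) and 4 were lower. Trdj1 had an adjusted p of 0.0586 by limma under that block. Same-numbered WT and KO libraries deviated from their group means with r of 0.10, 0.11 and -0.15 across genes, so the numbers were not taken to pair the samples.

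Too few Traj segments had at least 10 reads in WT 2 and KO 3 to give an effective number, a leading share or a position from such segments alone. Leaving out Trav segments with under 50% unique windows was added after the data were seen and moved none of 13 class values past the spread between replicates. Depth limits the delta segments other than Trdc, with at most 20 and 24 reads per library for Trdj and Trdv, and 1 read was worth about 1 FPKM on a J segment.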

Other observations

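A few rows inside the locus interval that the names did not pick up also carried reads. B230359F08Rik, annotated as a T cell receptor V gene (chromosome 14, 53795357 to 53795963, plus strand), had 4, 5 and 3 reads in WT 1 to WT 3, and 12, 9 and 12 in KO 1 to KO 3. Every KO library was above every WT library, and its log2 fold change was 0.60 ± 0.20 (SE, limma, adjusted p = 0.0727). A further V row without a Trav or Trdv symbol, C920008G01Rik, had no read in any library.

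Antisense rows in the delta part of the locus had more reads in KO. Gm30275 (chromosome 14, 54067579 to 54125395, minus strand), whose interval holds Trdv4, Trdd1, Trdd2 and Trdj1, had 6, 0 and 4 reads in the WT libraries and 11, 10 and 16 reads in the KO libraries. It did not pass the filter on low values. Gm43434, whose interval holds Trdj2 and the start of Trdc, was higher in KO with a log2 fold change of 1.03 ± 0.28 (SE, limma, adjusted p = 0.0348, with a range of 0.000396 to 0.129 over its alternatives).

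Olfr1507, an olfactory receptor gene between Trav1 and Trav2 on the minus strand (chromosome 14, 52488791 to 52495749), had no read in any WT library and 9, 4 and 13 reads in KO 1 to KO 3. These rows were picked out after their values were seen.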
